A study of Mus musculus with 3 samples.

Results

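The transcripts described here are 10 feedback regulators and targets of FGF-ERK signaling, namely Dusp4, Dusp6, Dusp7, Spry1, Spry2, Spry4, Spred1, Spred2, Etv4 and Etv5. They were chosen by name out of the 49997 genes in the count table, and all 10 passed the filter on low counts that left 19601 genes for testing. RNA bound to YTHDF2, a cytoplasmic reader of N6-methyladenosine (m6A) that promotes mRNA decay, was sought by RNA immunoprecipitation and sequencing (RIP-seq) next to an input library. The labels describe the use of purified total RNA in the IP, whereas the methods of the study describe an IP from cell lysate, and which applies to these libraries cannot be told from the counts. The series held 3 libraries of mouse embryonic stem cells (ESCs), 1 input and 2 YTHDF2 immunoprecipitation (IP) libraries. Per the labels the cells were of the E14 line, and they had received doxycycline (Dox) for 24 h. Per the text of the study, the cells carried a Dox-inducible Dux transgene, the driver of a state akin to the 2-cell embryo, and a tdTomato reporter under a MERVL promoter. All 3 libraries share that treatment, so no comparison with untreated cells was made. The medium named in the labels held leukemia inhibitory factor at 1000 U/ml and 15% serum replacement, and no MEK inhibitor was named among its components. Whether the 2 IP libraries came from separate cultures was not stated, so p-values measure only the spread between these libraries, which may be technical.

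In ESCs, fibroblast growth factor 4 (FGF4) acts through FGF receptors, RAS, RAF and MEK to switch on the kinase ERK, and this signal moves cells out of naive pluripotency toward differentiation. ERK activity raises the transcription of its own brakes. DUSP4, DUSP6 and DUSP7 are phosphatases that switch ERK off, Sprouty proteins (SPRY) dampen signaling between the receptor and RAF, and SPRED proteins bring the RAS inactivator neurofibromin to the membrane. ETV4 and ETV5 are ETS transcription factors of the PEA3 group whose genes are classical targets of the pathway. Many of these mRNAs are short-lived, so their levels follow ERK activity closely.

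YTHDF2 recognizes m6A, which is deposited within a short consensus of which GGACT (in DNA letters) is a common form, and which is known to concentrate near stop codons. The 30-base windows around the GGACT nearest to the stop codon are therefore shown for the members. They were read on the mRNA strand of GRCm38.p6 (mm10) along 1 RefSeq mRNA per gene, and the motif is in capitals. The set shows that each mRNA offers the sequence, but that its distance from the stop codon differs widely. Distances run from the last base of the stop codon to the first base of the motif. No sequence is printed for Spry4, whose nearest GGACT began 1264 bases into its 3′ untranslated region (UTR).
Dusp4, over the last base of the stop codon, chr8:34818771-34818800, plus strand: ccccagctgttaGGACTcgtctctggaccc
Dusp6, 21 bases before the end of the stop codon, chr10:99266266-99266295, plus strand: cgtctaccaggtGGACTccctgcagtctac
Dusp7, 123 bases before it, chr9:106373811-106373840, plus strand: ggggcagctgctGGACTttgagcggacgct
Spry1, 118 bases after it, chr3:37643657-37643686, plus strand: ctcaataggagtGGACTgtgaaactgcacc
Spry2, 301 bases before it, chr14:105893087-105893116, minus strand: tcattgactatgGGACTtgtgtgtgctgtg
Spred1, 324 bases after it, chr2:117178261-117178290, plus strand: cactaggtgatgGGACTttttaaagatttg
Spred2, 432 bases before it, chr11:20021003-20021032, plus strand: tgttgattcttcGGACTtcggcttcgggga
Etv4, 330 bases after it, chr11:101770019-101770048, minus strand: ggggacatacagGGACTtcccttgtttatt
Etv5, 339 bases after it, chr16:22383114-22383143, minus strand: tgcgttgatcatGGACTactaaaatgcctt

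The libraries held 36986994 (input), 35259827 (IP replicate 1) and 35888743 counts (IP replicate 2). As a check of the cell type, all 6 pluripotency markers (Pou5f1, Sox2, Nanog, Klf4, Esrrb and Zfp42) were well above the floor of 3 counts, and together they reached 5290 CPM (counts-per-million) in input, and 6598 and 6490 CPM after IP. The 4 markers of the 2-cell-like state summed to 1665, 2761 and 2756 CPM. The rise in these sums was not shared by every marker. Nanog and Zfp42 had lower CPM after IP, and Usp17la was at 276, 285 and 297 CPM. The other markers of both lists rose. Markers of other cells were low. The 4 of primitive endoderm summed to between 8.81 and 14.9 CPM, the 5 of fibroblasts to between 16 and 29.1 CPM, mostly Thy1, with Col3a1 at 0 in every library, and the 3 of trophoblast to between 1.57 and 3.66 CPM. The part of such cells in the results below was not tested. Because there was 1 input library, variation between inputs was not measured. No IP with a control antibody was analysed here, so enrichment is relative to input and its part from RNA binding to beads was not tested. Among the 4617 genes with a mean of 500 to 2000 counts, the log2 ratio of the IP libraries to each other had a standard deviation (SD) of 0.153, and it was 0.333 for 100 to 500 counts and 0.0893 for 2000 to 30000 counts.

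To learn which of the feedback transcripts came down with YTHDF2, the IP libraries were set against the input in edgeR's quasi-likelihood test, and p-values were adjusted (Benjamini-Hochberg) over all 19601 genes. Enriched and depleted mean an adjusted p-value under 0.05 together with a fold change over 2. Of the 10 members, 3 were enriched (Dusp7, Spry1 and Spry4), beside 15% of all tested genes. Only Dusp6 was depleted, beside 13% of all tested genes. At that adjusted p-value and any fold, 7 of the 10 were higher in IP (28.4% of all tested genes were) and 2 were lower, Dusp6 and Etv4 (28.9%), while Spry2 did not pass. The median log2 fold change of the 10 was 0.65, compared with 0.0063 over all tested genes. Each of the 10 had the same sign in both IP libraries. All 9 passing members lost their call when the dispersion was fixed at 0.1, a value for more variable libraries than the IP pair showed, with adjusted p-values then between 0.116 and 0.675 (edgeR likelihood ratio test), although 4 of the 10 (Dusp6, Dusp7, Spry1 and Spry4) had an unadjusted p under 0.05.

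**Figure D1:**
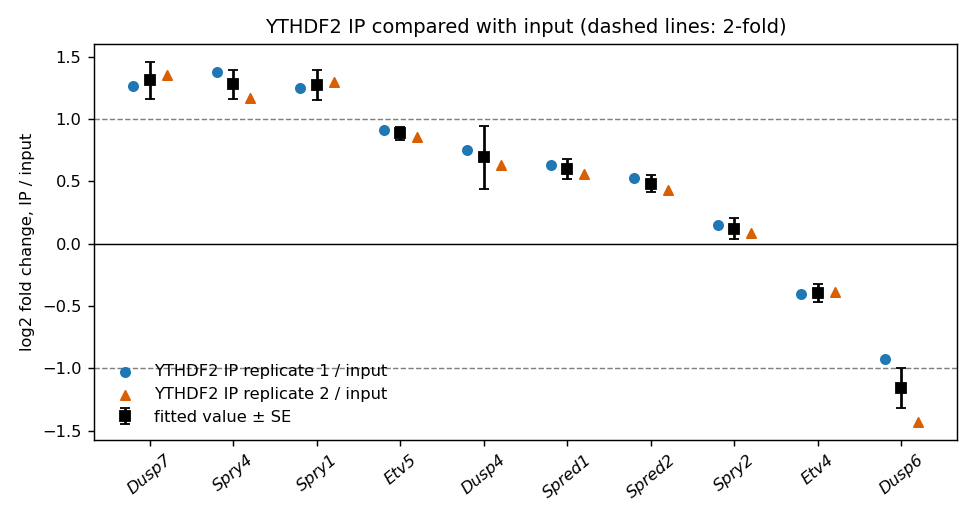
Log2 fold change of YTHDF2 IP over input for each member. Squares and bars give the fitted value ± SE, circles and triangles the ratio of each IP library to the input, and dashed lines mark 2-fold. Dusp7, Spry4 and Spry1 lie near 1.3 and above the upper line, Dusp6 lies at −1.16, and its IP libraries fall on either side of the lower line.

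The MAP kinase phosphatases moved in different directions. Dusp7 (chromosome 9, 106368560 to 106375724, plus strand), a cytoplasmic phosphatase of ERK, was counted 340 times in input, 833 times in IP replicate 1 and 902 times in IP replicate 2. Both IP libraries were far above the input, and Dusp7 was fitted at 1.31 ± 0.148 (SE) on the log2 scale, 2.48-fold up (edgeR adjusted p = 7.52e-10). It was the highest of the 10, and 85.2% of all tested genes had a lower value. Dusp7 mRNA is rich in G and C (58.1% of its exonic bases), and with the trend on GC content removed its value was 0.88, under 2-fold, at an adjusted p of 2.1e-05. Over the alternatives this p ran from 3.43e-18 to 0.116.

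Dusp6 (chromosome 10, 99263231 to 99267489, plus strand), the phosphatase most often used as a readout of ERK activity, went the other way. Input held 838 reads of it and the IP libraries held 449 and 322, so both lay below the input. On the log2 scale Dusp6 was at −1.16 ± 0.164 (SE), 2.23-fold down (edgeR adjusted p = 3.62e-07, between 1.01e-13 and 0.129 over the alternatives). The IP libraries differed from each other by 0.50 on the log2 scale, more than for any other member. IP replicate 1 alone was at −0.93 and IP replicate 2 alone at −1.43, so that IP replicate 2 carries Dusp6 past 2-fold. Of its exonic bases, 22.4% overlap Gm34921 on the opposite strand, and reads there were left out of the counts, since strand was not used. Gm34921 itself had 1, 0 and 4 counts.

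Dusp4 (chromosome 8, 34807610 to 34819894, plus strand), a nuclear phosphatase of ERK, was the least abundant of the 10. Its 145 input reads compare with 249 and 233 after IP, which lay close together above the input. The fitted log2 value was 0.69 ± 0.254 (SE), 1.62-fold (edgeR adjusted p = 0.0189). That call was lost in the DESeq2 test, without the GC trend, without the trend on exon density and at the fixed dispersion, the alternatives spanning adjusted p of 0.00348 to 0.452.

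Dusp6 and Dusp7 lend themselves to a comparison of sequence, since their mRNAs have 3 exons each and share a GGACT at the same place. In both, a motif began 486 bases before the end of the stop codon, and the 30-base windows around it are identical at 27 positions.
Dusp6, chr10:99264791-99264820, plus strand: gggctgtgccaaGGACTcgaccaacttgga
Dusp7, chr9:106370945-106370974, plus strand: cggctgtgccaaGGACTctaccaacctgga
Their fold changes differed by 2.47 ± 0.221 (SE, n = 2 IP libraries and 1 input) on the log2 scale, with differences of 2.19 and 2.78 in IP replicates 1 and 2. This was the widest gap among the 8 pairs within families in the reported values, and no test was run on pairs. With the GC trend removed, Dusp7 was at 0.88 and Dusp6 at −1.10, beside 1.02 for Etv5 and −0.91 for Etv4. Dusp6 had 8 GGACT in its mRNA and Dusp7 had 4.

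Among the Sprouty transcripts, Spry1 and Spry4 were enriched and Spry2 was not. Spry1 (chromosome 3, 37639947 to 37644599, plus strand) was read 562 times in input, and both IP libraries, at 1368 and 1428, lay well above that. Spry1 thus rose 2.42-fold, or 1.27 ± 0.122 (SE) as log2 (edgeR adjusted p = 1.21e-11). Removal of the GC trend brought it to 0.98, just under 2-fold, at an adjusted p of 4.01e-07 (1.08e-22 to 0.126 across alternatives).

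Spry4 (chromosome 18, 38586247 to 38601347, minus strand), which also restrains RAS activation, went from 737 reads in input up to 1956 and 1719 after IP. The IP libraries did not come near the input, and Spry4 was enriched 2.43-fold, 1.28 ± 0.115 (SE) as log2 (edgeR adjusted p = 4.05e-12). It was the only member enriched past 2-fold in every alternative except the fixed dispersion, where its adjusted p was 0.124, the highest of a range that began at 7.56e-27. Spry4 and Spry1 differed by 0.0041 ± 0.167 (SE) on the log2 scale, and which of the pair was higher depended on the IP library.

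Spry2 (chromosome 14, 105891947 to 105896819, minus strand) was the most abundant Sprouty transcript in the input. It was read 2126 times there, and 2412 and 2340 times after IP. Once scaled, the IP libraries stood at 0.15 and 0.09 above the input on the log2 scale, and the fitted value of 0.12 ± 0.085 (SE) did not pass (edgeR adjusted p = 0.231). Spry2 had more counts, and a smaller SE, than either of its relatives. Total count scaling and scaling to TPM put its adjusted p under 0.05, at log2 values of 0.22 and 0.27, while the median of all genes shifted by 0.0957 and 0.151 under those scalings. With the trend on exon density removed it was −0.08. The gap to Spry1 was 1.15 ± 0.148 and that to Spry4 1.16 ± 0.143 (SE) on the log2 scale, and each was above 1 in both IP libraries.

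The Spred transcripts were both moderately higher in IP. Spred1 (chromosome 2, 117121071 to 117182279, plus strand), whose human counterpart is mutated in Legius syndrome, gave 1942 reads in input against 3079 and 2964 after IP. This was a 1.51-fold rise, 0.60 ± 0.081 (SE) as log2 (edgeR adjusted p = 4.62e-08, 9.13e-13 to 0.513 across alternatives). Spred1 has the lowest GC content of the 10 at 42.3%, and without the GC trend its value was 1.16, past 2-fold.

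Spred2 (chromosome 11, 19924442 to 20024026, plus strand) gave 4252 reads in input against 6258 and 5944 after IP. Both IP libraries were above the input, by 0.48 ± 0.066 (SE) as log2, 1.4-fold (edgeR adjusted p = 6.58e-08, 3.04e-13 to 0.611 across alternatives). The annotation gives Spred2 33833 exonic bases, with 17146 of them in a single block, whereas the RefSeq mRNA used here has 2872, so its length-scaled level is too low for that mRNA. Spred1 and Spred2 differed by 0.12 ± 0.105 (SE) on the log2 scale.

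The PEA3 transcription factors had the highest length-scaled levels of the members in the input, and their fold changes diverged. By reads, Spred2 lay above Etv4 in every library, and the length-scaled level of Spred2 is too low for its mRNA. Etv5 (chromosome 16, 22381313 to 22439570, minus strand), which takes part in the exit from naive pluripotency, was read 12227 times in input, and 23549 and 22869 times after IP. The IP libraries nearly coincided, 1.85-fold above input, which is 0.88 ± 0.054 (SE) as log2 (edgeR adjusted p = 5.19e-17). It had the smallest error of the 10 and lay just under the fold threshold, which it passed without the GC trend (1.02) and under scaling to TPM (1.04).

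Etv4 (chromosome 11, 101769747 to 101785310, minus strand), its close relative, was read 3759 times in input but 2900 and 2981 times after IP. Both IP libraries were below the input and nearly equal, 1.31-fold down, or −0.39 ± 0.073 (SE) as log2 (edgeR adjusted p = 1.24e-05). With the trend on exon density removed Etv4 was at −0.00087 and did not pass (adjusted p = 0.993), whereas with the GC trend removed it was at −0.91 (adjusted p = 4.17e-10). No alternative put it past 2-fold. Etv5 exceeded Etv4 by 1.28 ± 0.09 (SE) on the log2 scale. Both mRNAs have 13 exons, which in Etv4 lie in a shorter mRNA (2333 against 4865 bases).

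Ordered by fold change, Dusp7, Spry4 and Spry1 led with values that overlap within their errors. Etv5 followed, then Dusp4, Spred1 and Spred2, where the error of Dusp4 spans the values of Etv5 and of both Spred transcripts, so that its place among them is not resolved. Spry2, Etv4 and Dusp6 came last, each separated from its neighbours by more than their errors in the reported values. With the exon trend removed Spry2 lay below Etv4, and with the GC trend removed Etv4 (−0.91) came close to Dusp6 (−1.10).

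**Figure D2:**
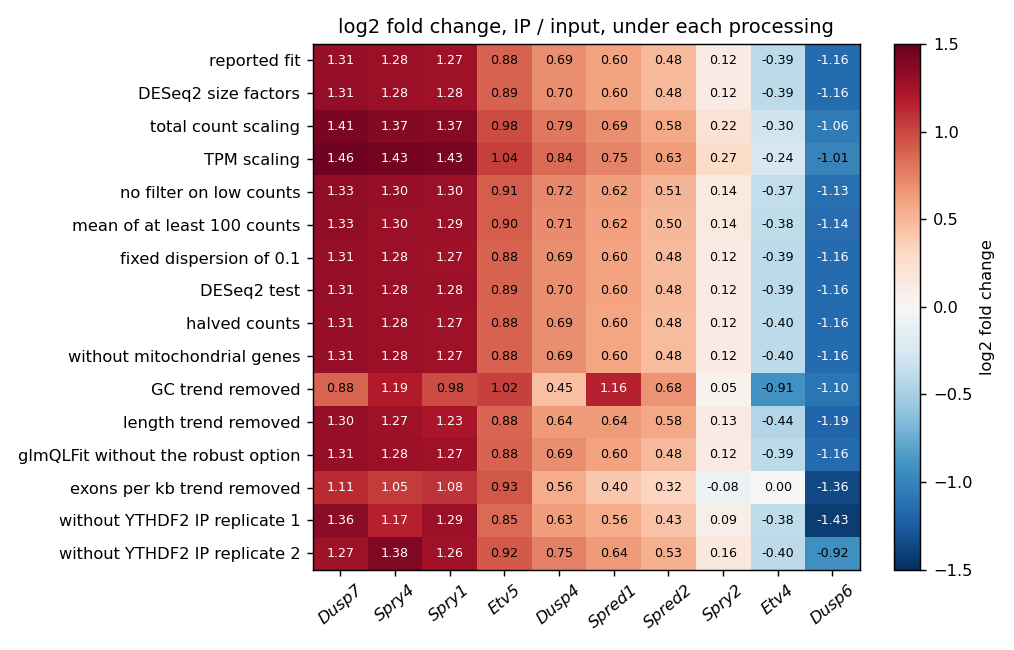
Log2 fold change of each member (columns) under each way of processing the counts (rows), on a color scale from blue (lower in IP) to red (higher in IP). The row of halved counts treats mates as pairs. The order Dusp7, Spry4, Spry1 at the top and Dusp6 at the bottom holds in the reported values, while removal of the GC trend moves Spred1 to 1.16, Dusp7 to 0.88 and Etv4 to −0.91, and removal of the exon trend moves Etv4 to about 0 and Spry2 to −0.08.

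Levels were compared between genes in TPM (transcripts-per-million), which divides counts by exonic length. In the input Etv5 was highest at 143 TPM and Etv4 next at 88.3 TPM. The 7.23 TPM of Spred2 rests on 33833 exonic bases, against 2872 in its RefSeq mRNA. Its rank beside Etv4 is therefore not resolved. The Sprouty transcripts were at 32.5 TPM (Spry2), 13 TPM (Spry1) and 9.04 TPM (Spry4), so that the most abundant was the one that did not pass the test. Dusp6 stood at 17.2 TPM, against 5.95 TPM for Dusp7 and 3.44 TPM for Dusp4. In the IP libraries this order was turned, with Dusp7 at 15.9 and 16.9 TPM and Dusp6 at 10.1 and 7.08 TPM. Spry1 stayed below Spry2 in the IP libraries, at 34.4 and 35.2 TPM against 40.2 and 38.2 TPM. The TPM of Spry2 rests on 3767 exonic bases, more than the 2087 of its RefSeq mRNA, and is therefore low for that mRNA. Spred1 was at 15.8 TPM in the input, 27.3 and 25.7 TPM after IP.

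**Figure D3:**
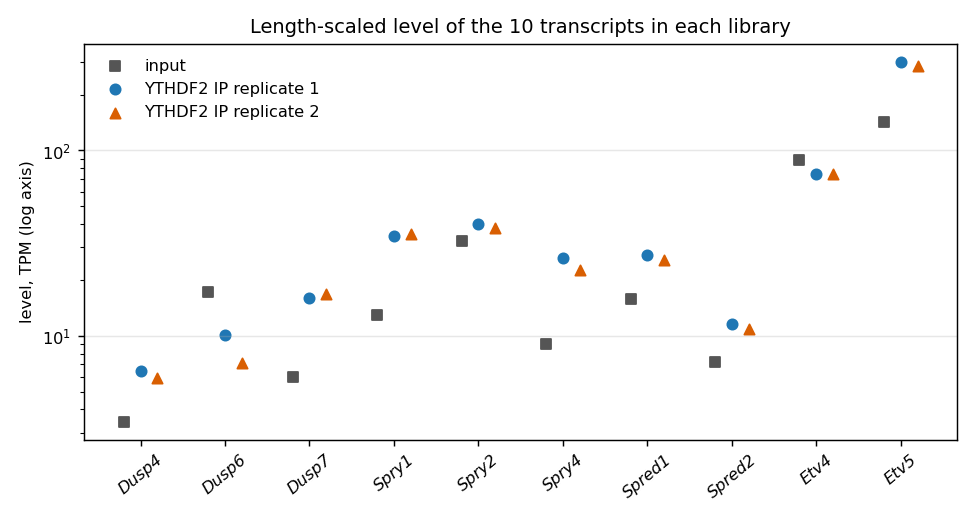
Level of each member in TPM on a log axis, with 1 point per library. Etv5 and Etv4 lie highest in the input, at 143 and 88.3 TPM. The points of Spred2 rest on more exonic bases than its RefSeq mRNA has and are too low for that mRNA. Dusp6 is above Dusp7 in the input and below it in both IP libraries.

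The 10 mRNAs were then described by features that were not used to choose them, against 15184 tested coding genes with 1 RefSeq mRNA each. Most members have few exons. Their median was 3.5 exons, compared with 9 over all, and 6 of the 10 (Dusp4, Dusp6, Dusp7 and the 3 Sprouty genes) had under 5. Across all coding genes, the median log2 fold change fell from 0.64 for genes with under 5 exons to −0.26 for those with 15 or more. Of the 3587 coding genes with under 5 exons, 31% were enriched and 5.02% depleted, and of the 6 members in that class 3 were enriched and 1 was depleted. The share of the 10 that was enriched therefore stands beside a transcript class that is itself often enriched. The 4 members with more exons held no enriched gene, where 10.4% of such coding genes were. Within the class of few exons the members spread from −1.16 (Dusp6) to 1.31 (Dusp7).

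In the count of GGACT (mRNA strand only), all 10 mRNAs held at least 1, as did 91.2% of tested coding mRNAs. The members held 46 in all, 23 in coding sequence, 17 in 3′ UTRs, 5 in 5′ UTRs and 1 over the end of the Dusp4 stop codon. Within 100 bases on either side of that end, only Dusp4 and Dusp6 had the motif, beside 24.2% of tested coding mRNAs. Density did not line up with enrichment among the 10. Spry2, at 3.35 per kb, and Dusp6, at 2.86 per kb, had the densest motifs and were above 98.6% and 97% of coding mRNAs, but Spry2 did not pass the test and Dusp6 was depleted. Spry4 was enriched with 0.427 per kb, above only 14.9% of coding mRNAs. Over the 10 members Spearman's rho of density with fold change was −0.406, while over the 15184 coding genes it was 0.152. These are descriptions across genes, which share the 3 libraries, and m6A itself was not measured in them.

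The 3′ UTRs were longer than the median of coding genes (932 bases) for 8 of the 10. Spred1 (4330 bases) and Spry4 (3559 bases) had the longest. Etv4 (618 bases) and Spry2 (856 bases) had the shortest and were among the 3 members with the lowest fold changes. Spry1 came next at 1048 bases and was enriched, while Spred1, with the longest, stayed under 2-fold in the reported values. Over the members, rho of 3′ UTR length with fold change was 0.442, compared with 0.00678 over all coding genes. GC content went with fold change over all coding genes (rho 0.36), and among the members rho was 0.248.

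**Figure D4:**
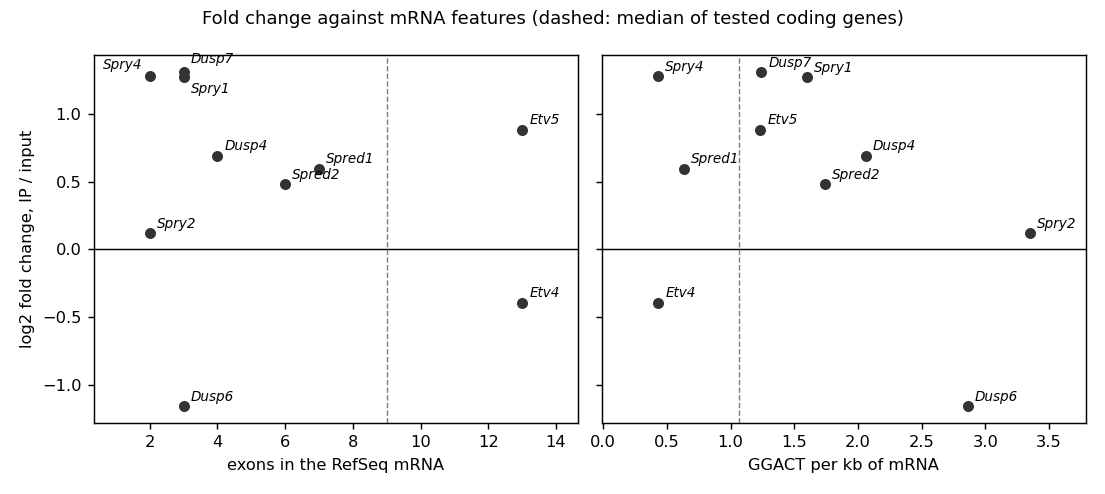
Log2 fold change of each member against the number of exons (left) and the number of GGACT per kb (right) of its RefSeq mRNA, with dashed lines at the median of 15184 tested coding genes. Genes with 2 or 3 exons span the whole range of fold changes, and Spry2 and Dusp6 combine the densest motifs with low values.

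The remaining pathway was examined in a list of 72 genes, from ligands to downstream transcription factors, and all 72 could be tested. Of these, 8 were enriched and 6 depleted, 11.1% and 8.33%, beside 15% and 13% of all tested genes, and the median log2 fold change was 0.11. The ligands held 3 of the enriched genes among 9 (33.3%, beside 15% of all tested genes). Fgf4, the ligand that ESCs themselves make, climbed from 8291 reads in input to 28163 and 27511 after IP, which is 1.71 ± 0.056 (SE) as log2 (edgeR adjusted p = 4.45e-25). Fgf8 had the highest value, 2.58 ± 0.856 (SE), but on only 6 reads in input and 51 and 24 after IP (edgeR adjusted p = 0.00958), and its call was lost in the DESeq2 test and without the GC trend, and the stricter filter of a mean of at least 100 counts left it out. Fgf1 was the depleted ligand at −1.07 ± 0.124 (SE), just past 2-fold, and that call was lost under total count scaling, scaling to TPM, removal of the GC or length trend, and the fixed dispersion.

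No FGF receptor gene passed 2-fold in either direction. Fgfr1, the main FGF receptor of ESCs, was higher in IP by 0.46 ± 0.06 (SE) on the log2 scale, with 6326 reads in input and 8760 and 9161 after IP. Of the 10 adaptor genes, Frs3, a docking protein of FGF receptors, was enriched at 2.05 ± 0.108 (SE), and none was depleted. Hras, a RAS family GTPase, was the highest of the whole pathway at 3.88 ± 0.065 (SE), and no other of the 10 genes for RAS proteins and their inactivators passed 2-fold.

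Of the 11 genes of the RAF-MEK-ERK core and its scaffolds, 2 were depleted (18.2%) and none was enriched, beside 13% and 15% of all tested genes. At any fold 7 were lower, beside 28.9% of all tested genes, and 2 were higher, Map2k2 (0.58) and Ksr1 (0.51), which are named because they are the whole of that count. Lamtor3, a scaffold for MEK and ERK on endosomes, was one of the depleted genes, with 1365 reads in input and 575 and 622 after IP, which is −1.23 ± 0.121 (SE) as log2 (edgeR adjusted p = 2.37e-11). Its depleted call was lost without the GC trend, without the exon trend and at the fixed dispersion. Mapk3, which encodes ERK1, was at −0.27 and Map2k1, which encodes MEK1, at −0.63, both past the adjusted p-value and under 2-fold. Of the 13 downstream kinases and transcription factors, 2 were enriched and 2 depleted, each 15.4%, beside 15% and 13% of all tested genes. Elk3 was highest at 1.56 ± 0.107 (SE) and Rps6ka6 lowest at −1.64 ± 0.117 (SE).

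**Figure D5:**
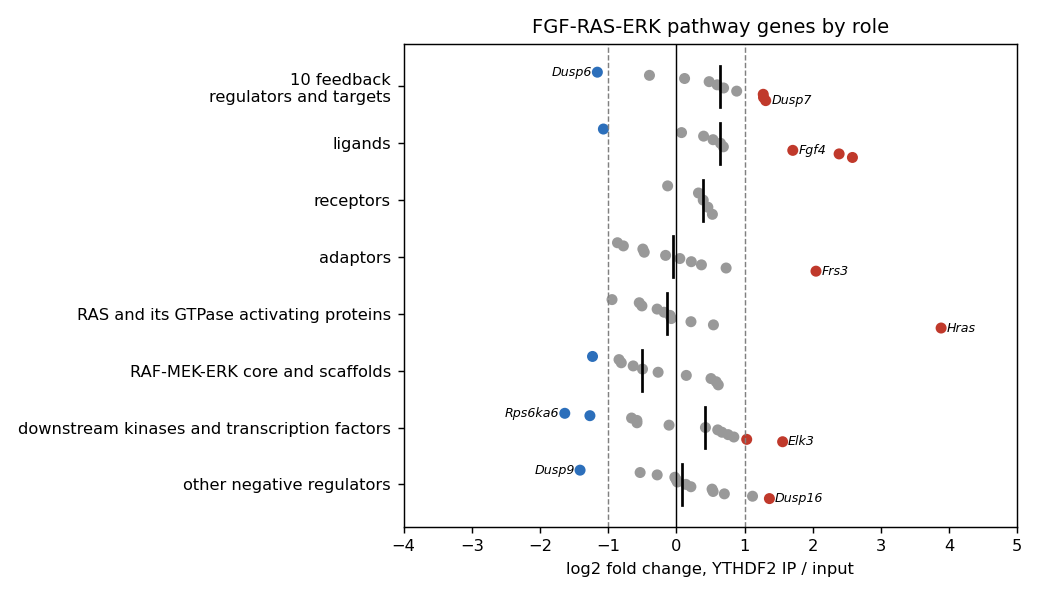
Log2 fold change of the 10 members and of the other pathway genes by role, with 1 point per gene. Red marks enriched, blue depleted and grey other genes, black bars give medians, and dashed lines mark 2-fold. The RAF-MEK-ERK core has the lowest median, −0.50, and no red point. Spry3, at 3 or fewer counts on average in IP, and 1 gene of the core are not drawn but are in the medians.

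The close relatives of the members were on that list too, and 10 of them were examined. Of these relatives, 1 was enriched and 2 were depleted, 10% and 20%, beside 15% and 13% of all tested genes. Only Dusp16 was enriched, at 1.37 ± 0.084 (SE), with 1342 reads in input and 3595 and 3512 after IP. DUSP16 acts mainly on the kinases JNK and p38. Dusp9, an ERK phosphatase prominent in ESCs, was depleted at −1.41 ± 0.066 (SE), from 6824 reads to 2634 and 2638, and Etv1, the remaining PEA3 factor, was depleted at −1.27 ± 0.161 (SE). The call of Etv1 was lost without the GC trend, and those of Dusp16, Dusp9 and Etv1 at the fixed dispersion. Spred3 (0.70), Dusp5 (0.54) and Dusp1 (0.21) were higher at any fold. Dusp2, Dusp8 and Dusp10 did not pass, at 0.01, 1.12 and −0.002, and Dusp2 and Dusp8 had at most 19 counts in any library. Spry3 did not pass with 19, 4 and 0 counts.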

How the data were processed

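RIP-seq libraries of ESCs, 1 input and 2 YTHDF2 IP, were grouped by title. Per the labels and methods, the authors filtered reads with fastp 0.19.4, aligned them to mm10 with HISAT2 2.2.1 and named DESeq2 1.40.2. The deposited values are raw counts per gene, made with featureCounts 2.0.3 over RefSeq exons, without strand, each mate apparently counted on its own (61.4% to 64.7% of counts from 1 to 100 were even). Counts were analysed with edgeR 4.0.16 in R 4.3.3 (filterByExpr, TMM, glmQLFit with the robust option, glmQLFTest), with 1 residual degree of freedom, from the IP libraries, and a common dispersion of 0.00538. SEs were derived from the log2 fold change and F. The SE of a pair treats both genes as independent. Ratios of single libraries add 0.5 to each count. Counts of 3 or fewer were taken as the floor. Trends were removed as loess offsets. DESeq2 1.42.0 was an alternative. The test was also run on simulated data, whose outcome is not given here and which cannot measure variation between inputs. All members, 5 genes of the signaling axis, the relatives, and the highest and lowest called gene per role were named, except genes that are not reported here. The members and lists were chosen with earlier results of these data known. The table held 0 columns of other samples. Sequences are from RefSeq, GRCm38.p6.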

Additional observations from a re-analysis of the deposited data

How the results depend on the processing

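No paired analysis was possible because replicate numbers exist only for IP, where input was sequenced once. The removal of the trend on exons per kb and the fit without the robust option were chosen after seeing the data. With the dispersion fixed at 0.1, 0 members were enriched, 0 depleted, and 0 higher or 0 lower at any fold, while 5 of the other pathway genes were enriched (Rps6ka2, Elk3 and Dusp16 lost) and 3 depleted (Fgf1, Lamtor3, Etv1 and Dusp9 lost, Spry3 gained). Without the GC trend 7 were enriched (Fgf8 and Rps6ka2 lost, Fgf10 gained), and Fgf1, Lamtor3 and Etv1 lost their depleted call. In the other alternatives with a test, 3 or 4 members were enriched and 1 was depleted. Without the GC trend the 3 were Spry4, Spred1 and Etv5 in place of Dusp7, Spry1 and Spry4. Removal of the exon trend left 1 member, Dusp6, lower at any fold, and put Spry2 at −0.0804. The median of the members was 0.741 with total count scaling, 0.797 with scaling to TPM, 0.778 without the GC trend and 0.479 without the exon trend. Leaving out either IP library gave medians from 0.596 to 0.698. Dusp4, with the fewest counts, had the largest SE of the members.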
